A study of Mus musculus with 15 samples.

Results

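A dominant-negative form of the transcription factor MLX (MLX-DN) was set against wild-type MLX (MLX-WT) in C2C12, an established line of mouse myoblasts, the precursors that fuse into muscle fibres. All libraries labelled with either construct were taken, 3 with MLX-DN and 3 with MLX-WT, which are 6 of the 15 messenger RNA libraries of a study on muscle cells with raised or lowered MLX activity. Both constructs were delivered by lentivirus on top of the cells' own Mlx gene, so the pair asks what differs when the extra MLX is dominant-negative and when it is wild-type. The libraries left out of the pair were 3 with a vector for green fluorescent protein alone (GFP control), 3 with a non-targeting short hairpin RNA (NT shRNA) and 3 with a hairpin against Mlx (MLX shRNA). They serve below as reference levels and for a contrast that shares no library with the pair. The labels give neither the change that makes MLX-DN dominant-negative nor any protein level, and nothing in them tells if replicate libraries stem from cultures grown apart. P-values therefore measure the spread between these libraries only, which may be technical.

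MLX belongs to the basic helix-loop-helix leucine zipper family and binds DNA only when paired with another member. With MLXIP (MondoA) or MLXIPL (ChREBP) it forms activators that enter the nucleus when glucose metabolites build up, and with MXD1, MXD4 or MNT it forms repressors. The activating pairs bind carbohydrate response elements, in which 2 E-box-like sequences stand 5 bases apart, and Txnip and Arrdc4 are their best known targets. Skeletal muscle mostly uses MondoA. A dominant-negative partner is built to occupy such pairs and leave them inactive.

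Of 23352 genes listed, 11945 had an FPKM (fragments per kilobase of transcript, scaled to the mapped total of the library) reaching 1 in 3 or more of all 15 libraries and were tested with limma on the deposited log2(FPKM + 2) values. Differences below are log2 differences on that scale, MLX-DN minus MLX-WT, which understate the change of low genes. The steps between low values gave about 47.2 to 65.9 M reads for the MLX-DN libraries and 53.1 to 77.8 M for MLX-WT. Libraries of 1 group correlated at r = 0.9978 to 0.9991, MLX-DN with MLX-WT libraries at 0.9789 to 0.9811, and no library of the pair stood apart from its group. All 8 myoblast markers were expressed, with a summed level of 1927 to 1999 FPKM with MLX-DN and 2016 to 2057 with MLX-WT. All 10 myotube markers were expressed as well, at a summed 12020 to 12300 FPKM with MLX-DN and 15810 to 16070 with MLX-WT. Whole chromosomes differed between the groups, as described at the end, and the counts over all genes and over many of the gene lists are therefore also given after every library was centred chromosome by chromosome.

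Mlx RNA was far above the control level in both groups. It stood at 384, 399.9 and 398 FPKM with MLX-DN and at 655, 632 and 645 with MLX-WT, against 16.6, 17.6 and 17.1 in the GFP control and 16.3, 17.1 and 17.9 with NT shRNA. The 2 groups did not overlap, and Mlx fell in MLX-DN relative to MLX-WT (-0.71, SE 0.06, limma adjusted p = 4.23e-08). The reads may come from the construct, from the cell's own gene or from both, and 19.4% of the exon bases of Mlx overlap Psmc3ip on the opposite strand. The sources used here do not state if reads were counted by strand. The pair thus differs in the form of MLX and also in the FPKM of Mlx, and these cannot be told apart. With the change in MLX-DN not given, it is not known how closely this FPKM follows the amount of construct RNA.

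Between the groups 8618 of 11945 genes passed the test at an adjusted p under 0.05, which is 72.1% of those tested. Of these, 3967 were higher in MLX-DN (33.2%) and 4651 lower (38.9%). These 2 shares are the background for the counts of the gene lists below. The split depended on scaling, since median centring gave 4382 higher and 4290 lower and quantile normalization 4709 higher and 4043 lower. Most differences were small, with a median absolute value of 0.234 among called genes and a median SE of 0.036. The libraries of the groups did not overlap for 9149 genes, or 76.6%, so calls alone say little about a gene. A difference of at least 2-fold was much rarer and uneven, with 157 genes (1.31%), of which 44 were higher (0.368%) and 113 lower (0.946%). With other offsets of the log scale more genes passed 2-fold, 263 at an offset of 1 and 540 at 0.1. Centring within chromosomes left 8224 called genes and 146 past 2-fold, 45 of them higher. In the GFP and NT shRNA controls, both mean levels lay between those of MLX-DN and MLX-WT for 60 of the 113 genes that fell 2-fold (53.1%) and for 16 of the 44 that rose (36.4%), against 11.4% of all tested genes. Genes picked for a wide gap between MLX-DN and MLX-WT leave more room for the controls to lie within it. The higher shares therefore follow at least partly from the choice of genes.

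No tested gene of the MLX network, Mlx included, was called at 2-fold or more. Several still moved by more than 0.234, the median absolute difference among called genes. Of 13 listed network genes 11 were tested, 3 were higher in MLX-DN and 6 lower, with a median of -0.18 beside -0.02 over all tested genes. Mlxip, the gene of MondoA, stood at 4.04, 4.18 and 3.57 FPKM with MLX-DN and 3.64, 3.32 and 3.70 with MLX-WT, so the groups overlapped (0.09, limma adjusted p = 0.129). Mlxipl, the gene of ChREBP, was at most 0.021 FPKM in any of the 15 libraries. Among the repressive relatives, Mnt fell by 0.33, Mxd1 fell by 0.49 and Mxd3 fell by 0.56, while Mxd4 was 19.2, 20.4 and 19.4 against 19.6, 19.8 and 19.4 FPKM and was not called (limma adjusted p = 0.964). Myc, the growth-promoting relative that pairs with MAX, fell by 0.45, although centring within chromosomes left -0.14. Mga rose to 6.58 ± 0.375 from 5.08 ± 0.0439 FPKM (SD, n = 3 each), and Max, the partner of MYC and MXD proteins, differed by 0.12, or by -0.07 when chromosomes were centred.

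Txnip had one of the largest falls of the table. It encodes an alpha-arrestin that limits glucose uptake and binds thioredoxin. The 3 MLX-DN libraries held 1.251, 1.17 and 1.51 FPKM and the 3 MLX-WT libraries 37.4, 37.0 and 39.4, a 28.9-fold ratio of means. The groups did not overlap (-3.59, SE 0.039, limma adjusted p = 9.82e-19). MLX-WT lay near NT shRNA, at 38.6, 40.2 and 39.1 FPKM, and above the GFP control, at 30.5, 29.1 and 31.0 FPKM. Gm15441, whose exons overlap Txnip on the opposite strand and which was chosen after its values were seen, moved with it (0.571, 0.491 and 0.531 against 17.9, 18.01 and 18.2 FPKM). Without known strand the reads of the 2 genes cannot be told apart.

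The promoter of Txnip is shown because it holds the sequence that MLX pairs are known to bind. The capitals mark a match to a pair of E-box-like sequences (CACGNG, any 5 bases, then CACGNG), which begins 85 bases before the start. The 250 bases before the start lie at chr3:96557707-96557956 of GRCm38.p6, plus strand, read from RefSeq.
Txnip: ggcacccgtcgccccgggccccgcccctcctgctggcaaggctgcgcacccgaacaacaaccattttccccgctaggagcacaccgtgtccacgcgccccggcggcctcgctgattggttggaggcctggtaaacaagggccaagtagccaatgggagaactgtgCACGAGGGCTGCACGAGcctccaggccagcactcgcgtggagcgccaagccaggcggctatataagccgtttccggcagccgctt
Among the 9213 tested genes with a RefSeq promoter (250 bases before to 50 after the start, both strands searched), 10 held that motif, or 0.109%. Among the 73 promoters of genes at least 2-fold lower in MLX-DN, Txnip's was the only match, and none of the 32 of genes 2-fold higher had one. The plain E-box CACGTG stood in 6.85% of the promoters of 2-fold lower genes, in 9.38% of those of 2-fold higher genes and in 12% of all tested. These matches describe the letters of a short window and say nothing about binding.

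The other alpha-arrestins that could be tested differed far less than Txnip. Arrdc4, the closest relative and also a known MondoA target, stayed under 1 FPKM in every library and was not tested. It was listed at 0.00390, 0.00490 and 0 FPKM with MLX-DN, at 0.738, 0.910 and 0.882 with MLX-WT and at 0.200, 0.0929 and 0.0866 with NT shRNA. The MLX-DN libraries were at or near 0, and the groups did not overlap. Of the tested members, Arrdc2 fell by 0.15, and Arrdc1 and Arrdc3 rose by 0.19 and 0.13. The latter calls rest on single libraries: without MLX-DN library 1 Arrdc1 had a limma adjusted p of 0.0633, and without MLX-DN library 3 Arrdc3 had 0.112.

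Genes that MondoA or ChREBP raise with glucose in other tissues were mixed. Of 17 tested members of that list, 10 were lower and 4 higher in MLX-DN, with a median of -0.22, and with chromosomes centred 8 were lower and 6 higher. Pfkfb3, which makes the activator of phosphofructokinase, was next after Txnip, at 1.94, 1.82 and 1.96 FPKM with MLX-DN and 4.6, 4.38 and 4.59 with MLX-WT (-0.74, limma adjusted p = 1.08e-11). Me1, the NADP-linked malic enzyme, fell by 0.58. Bhlhe40, a clock-linked repressor, rose by 0.44 and Klf10, a Krüppel-like repressor chosen after its values were seen, rose by 0.17. Fgf21, a hormone of energy stress also chosen afterwards, stood at 32.2, 30.5 and 31.9 FPKM with MLX-DN and 47.5, 46.5 and 46.8 with MLX-WT (-0.55, limma adjusted p = 4.95e-08).

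**Figure D1:**
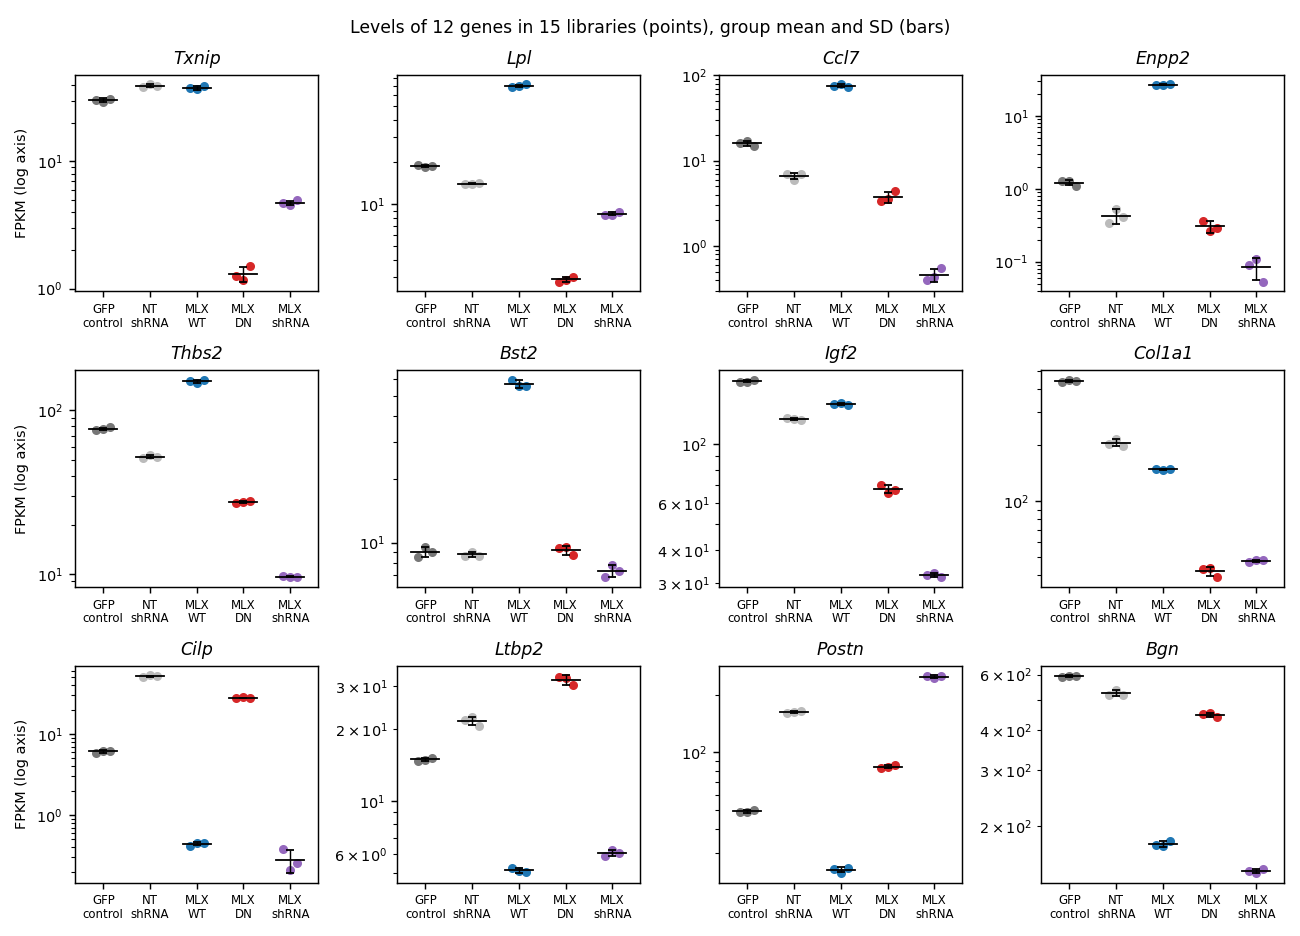
Levels of 12 genes in all 15 libraries on log axes, as FPKM. Points are libraries, long bars group means and short bars the SD over 3 libraries; Txnip, Lpl, Ccl7, Enpp2, Thbs2, Bst2, Igf2 and Col1a1 are lower in every MLX-DN than in every MLX-WT library, and Cilp, Ltbp2, Postn and Bgn are higher.

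Lpl, the lipase that releases fatty acids from circulating triglyceride, had the largest fall of the named genes (-3.88, SE 0.027, limma adjusted p = 8.25e-21). It stood at 2.79, 2.89 and 2.99 FPKM with MLX-DN and at 68.7, 69.4 and 71.9 with MLX-WT, and its control levels of 19.02, 18.4 and 18.6 (GFP) and 13.9, 13.9 and 14.1 (NT shRNA) lay between. Enpp2, which encodes autotaxin, the enzyme that makes lysophosphatidic acid, was 0.365, 0.259 and 0.287 against 27.0, 26.6 and 27.2 FPKM (-3.65, limma adjusted p = 1.96e-19). For Enpp2 the MLX-WT libraries were the ones that stood out, since the GFP control held 1.27, 1.29 and 1.10 FPKM. Tmem86a, a lysoplasmalogenase, was 11.5, 11.3 and 11.9 against 70.2, 68.3 and 70.1 FPKM, with 10.7, 10.7 and 10.8 in NT shRNA. Apoe, the lipid carrier, and Adh1, an alcohol dehydrogenase, were chosen after their values were seen and fell by 2.11 and 2.05. Cd36, a fatty acid transporter, was 0.330, 0.286 and 0.382 against 1.75, 1.62 and 1.96 FPKM but 10.1, 9.86 and 9.64 in the GFP control, so MLX-WT was itself below that control.

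Chemokine genes went in both directions. Ccl7, a monocyte chemokine, stood at 3.38, 3.51 and 4.37 FPKM with MLX-DN and 75.04, 78.2 and 72.0 with MLX-WT (-3.75, SE 0.063, limma adjusted p = 2.51e-16). Ccl2, its neighbour on chromosome 11 with a similar role, stood at 1.56, 2.11 and 1.71 and 33.3, 32.4 and 32.3 FPKM (-3.19, limma adjusted p = 7.26e-15). For both genes the controls lay closer to MLX-DN than to MLX-WT on the FPKM scale, at 2, 1.75 and 1.88 FPKM of Ccl2 in NT shRNA and 6.83, 6.29 and 7.58 in the GFP control. Il1rn, the interleukin-1 receptor antagonist, was 0.202, 0.139 and 0.128 against 24.4, 24.2 and 24.7 FPKM (-3.62, limma adjusted p = 1.96e-19). Of 21 chemokine and cytokine receptor genes tested, 11 were lower and 6 higher, with a median of -0.15. Cx3cl1, a membrane-tethered chemokine, went the other way at 21.2, 21.6 and 19.98 against 10.02, 10.1 and 10.4 FPKM, as did Cxcl14, at 1.39, 1.42 and 1.44 against 0.132, 0.127 and 0.0309. Il6, a cytokine that contracting muscle releases, was chosen after its values were seen and rose by 1.11 to 3.56 ± 0.0802 FPKM (SD, n = 3).

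Ly6d, a GPI-anchored surface protein, was also among the largest falls, at 2.02, 1.69 and 1.80 against 44.7, 44.3 and 43.9 FPKM, with 3.72, 3.40 and 3.75 in the GFP control (-3.59, limma adjusted p = 2.71e-17). It lies in a cluster of related genes on chromosome 15. A window of 11 neighbouring expressed genes, Ly6d included, was lower in MLX-DN throughout, with a median of -1.07. That window was picked for having the lowest median of all such windows, so its median follows partly from the choice. Chromosome 15 as a whole had a median of -0.305. Another 5 Ly6 relatives in that window, of which all but Ly6e were chosen after their values were seen, fell as well: Ly6e by 1.55, Ly6c1 by 1.15, Ly6c2 by 1.14, Lynx1 by 1.07 and Ly6a by 0.90. Ms4a4d fell by 2.36, Fibin by 2.26 and Lgals3bp, a secreted galectin-binding glycoprotein, by 2.24. Nnmt, which methylates nicotinamide, was 0.127, 0.0801 and 0.222 against 7.54, 7.25 and 7.04 FPKM, and its MLX-WT level was within the range of the GFP control. Gja1, the connexin-43 gap junction gene, and Emb, embigin, were chosen after their values were seen and fell by 1.64 and 1.65.

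Cilp, a secreted matrix protein that binds TGF-beta, had the largest rise of the named genes. It stood at 27.9, 28.2 and 28.1 FPKM with MLX-DN and 0.417, 0.457 and 0.453 with MLX-WT, a 63.4-fold ratio of means (3.62, SE 0.03, limma adjusted p = 5.23e-20). The MLX-WT level was below both controls, which held 5.88, 6.15 and 6.22 FPKM (GFP) and 51.2, 52.8 and 51.4 (NT shRNA), and MLX-DN lay between the controls. Ltbp2, a latent TGF-beta binding protein of elastic fibres, stood at 33.0, 32.5 and 30.4 against 5.27, 5.10 and 5.05 FPKM (2.25, limma adjusted p = 8.48e-17). Postn, periostin, stood at 82.6, 84.1 and 85.8 against 24.8, 23.6 and 25 FPKM (1.70, limma adjusted p = 3.58e-17). For Ltbp2 the MLX-DN libraries exceeded every control library, whereas for Postn they were above the GFP control and below NT shRNA. Mfap5, a microfibril glycoprotein, rose by 1.60 and Bgn, the proteoglycan biglycan, by 1.35 from 174, 173 and 179 to 452, 453 and 441 FPKM. Grem1, a BMP antagonist, rose by 1.55.

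Other named rises were of genes of several classes. Ptgs2, the inducible cyclooxygenase, stood at 56.6, 57.2 and 60.4 FPKM with MLX-DN and 17.99, 17.4 and 18.1 with MLX-WT (1.60, limma adjusted p = 2.86e-14). Cp, the copper ferroxidase ceruloplasmin, rose by 1.81, Fxyd6, a sodium pump regulator, by 1.80, and Cmklr1, the chemerin receptor, by 1.56. Tiam1, a Rac exchange factor, rose by 1.45, and Gpx3, the secreted glutathione peroxidase, rose by 1.42 to 44.8, 46.6 and 44.2 FPKM. Rnf150, a ring finger gene inside the chromosome 8 run described at the end, rose by 1.49. Fgl1, a fibrinogen-like secreted protein, was 8.47, 7.45 and 8.87 FPKM with MLX-DN and at most 0.0721 in every other group. Ptprc, the leukocyte surface gene CD45, was 4.39, 4.52 and 4.74 FPKM with MLX-DN and listed at 0 in all 3 MLX-WT libraries, where the floor of 3 reads for a transcript of 2000 bases was 0.0193 to 0.0283 FPKM. Ptprc was the only leukocyte marker that rose: of 10 markers looked up, 7 were under 1 FPKM in both groups, and Cd68 and Cd14 fell by 0.34 and 0.49. Srp54a, a signal recognition particle gene, was 125, 132 and 128 against 18.7, 18.5 and 18.2 FPKM, but the MLX shRNA libraries held 24.1, 23.5 and 120.1, so 1 of them stood apart, and near copies of the gene exist (Srp54b and Srp54c), so its value is uncertain.

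**Figure D2:**
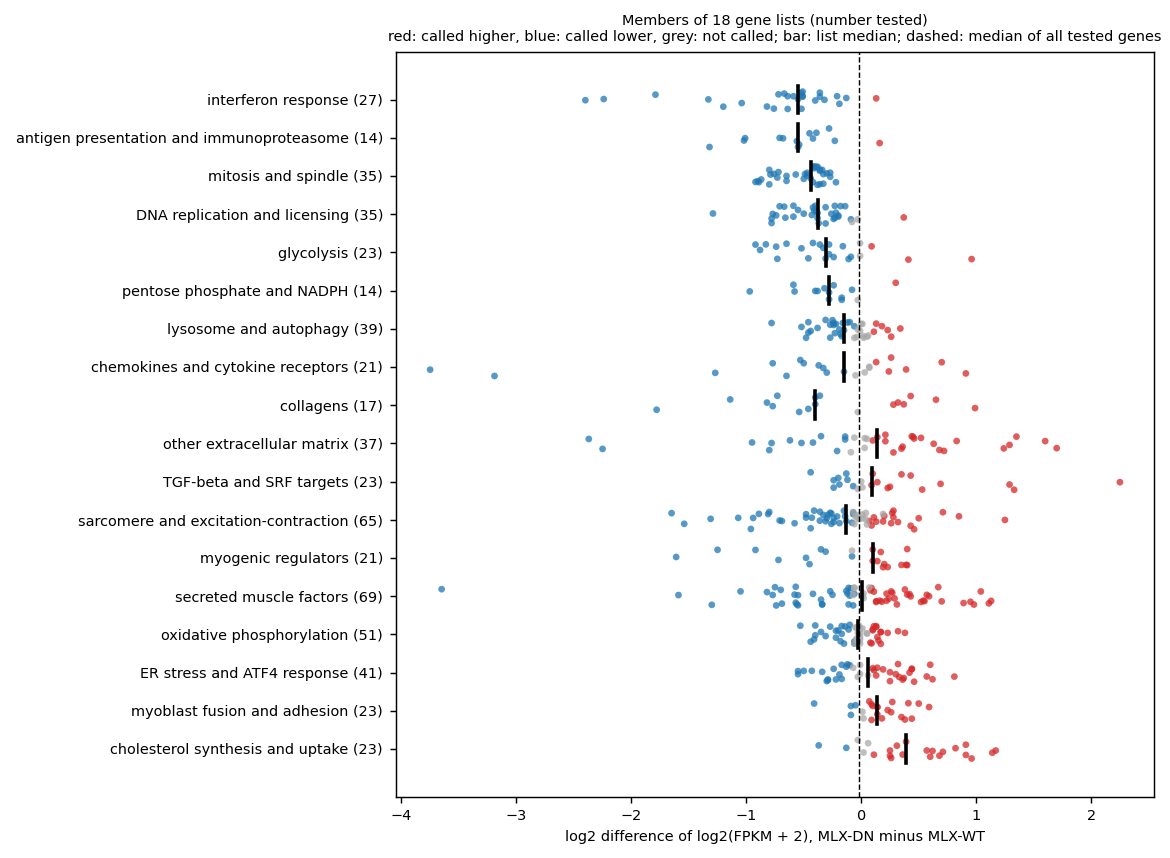
Each point is a tested gene of 1 of 18 gene lists, placed by its log2 difference, MLX-DN minus MLX-WT; black bars are list medians and the dashed line the median of all tested genes, -0.02. Interferon response, antigen presentation, mitosis and DNA replication lie almost wholly below 0, cholesterol synthesis mostly above, and matrix and muscle lists spread to both sides.

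Interferon-stimulated genes were lower in MLX-DN almost without exception. Of 27 tested members 26 were lower and 1 higher, with 6 past 2-fold, and the list's median was -0.55 beside -0.02 over all tested genes. Centring within chromosomes left 25 lower and a median of -0.48. Bst2 (tetherin), which holds budding virus at the cell surface, stood at 9.39, 9.55 and 8.70 FPKM with MLX-DN and 59.6, 55.6 and 55.7 with MLX-WT (-2.40, limma adjusted p = 5.73e-16). Lgals9, galectin-9, stood at 3.98, 3.64 and 3.73 and 18.1, 17.8 and 18.01 FPKM (-1.79, limma adjusted p = 3.03e-16). Ifih1, the RNA sensor MDA5, was 0.353, 0.299 and 0.333 against 3.51, 3.31 and 3.25 FPKM, with 0.361, 0.317 and 0.351 in NT shRNA. For Bst2 and Ifih1 the MLX-DN libraries lay near the NT shRNA level and the MLX-WT libraries above all others. Across the list, the median relative to NT shRNA was -0.07 for MLX-DN and 0.47 for MLX-WT, and relative to the GFP control -0.28 and 0.24. Most members were expressed at low levels, and 17 of 44 listed genes were too low to test. A low member could pass the filter through its MLX-WT libraries alone, which favours members that are lower in MLX-DN. Ifih1 is such a low member, so the near uniformity of the count may partly follow from the filter. The stricter filter of 5 FPKM, given further below, left fewer interferon genes.

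The antigen presentation genes, many of which respond to interferon, followed the same direction. Of 14 tested 13 were lower and 1 higher, with a median of -0.55, or -0.49 with chromosomes centred and the same counts. Psmb8, an immunoproteasome subunit, was 0.397, 0.406 and 0.277 against 4.39, 3.995 and 3.39 FPKM (-1.32, limma adjusted p = 1.68e-12). The limit of the filter given for the interferon list holds for such low members too. Tapbp, which loads peptides onto class I molecules, was 13.2, 13.6 and 13.2 against 29.2, 28.7 and 29.2 FPKM, and Tap2, a subunit of the peptide transporter, fell by 1.02. B2m, the class I light chain, was the member that rose, by 0.16, and is named because it was the single exception.

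The promoters of Bst2 and Lgals9 are shown since they belong to the interferon-list members of lowest p whose windows hold the motif of interferon response elements. Capitals mark matches to GAAA, any 2 bases and GAAA on either strand. The Bst2 window is chr8:71537473-71537722 and the Lgals9 window chr11:78984925-78985174, both on the minus strand of GRCm38.p6 from RefSeq and ending at the base before the start.
Bst2: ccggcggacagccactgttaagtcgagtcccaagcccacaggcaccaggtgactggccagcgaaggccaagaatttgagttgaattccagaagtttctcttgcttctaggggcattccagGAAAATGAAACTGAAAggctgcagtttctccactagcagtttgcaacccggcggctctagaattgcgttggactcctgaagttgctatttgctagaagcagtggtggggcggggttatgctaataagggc
Lgals9: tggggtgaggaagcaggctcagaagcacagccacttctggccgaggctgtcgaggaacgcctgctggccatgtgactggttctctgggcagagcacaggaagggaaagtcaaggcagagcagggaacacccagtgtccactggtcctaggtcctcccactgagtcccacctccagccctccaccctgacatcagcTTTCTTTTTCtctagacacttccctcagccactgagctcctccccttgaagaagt
The 2 Bst2 matches overlap each other, 130 and 124 bases before the start, and a second Lgals9 match lies after the start and is not printed. The motif stood in 13 of 24 interferon-list promoters (54.2%), in 4 of 13 antigen presentation promoters (30.8%) and in 3.39% of the 9213 tested promoters. Among all genes at least 2-fold lower in MLX-DN, 12.3% of promoters held it.

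Cholesterol synthesis genes rose in MLX-DN. Of 23 tested members of the synthesis and uptake list 18 were higher and 2 lower, with a median of 0.39, and 20 were higher with a median of 0.44 after centring within chromosomes. Sc4mol (Msmo1), a sterol demethylase, stood at 29.2, 28.7 and 31.3 FPKM with MLX-DN and 11.7, 12.5 and 12.1 with MLX-WT (1.17, limma adjusted p = 2.16e-13). Idi1, which isomerises isopentenyl diphosphate, was 29.0, 29.3 and 32.1 against 12.3, 12.8 and 12.6 FPKM (1.14, limma adjusted p = 3.86e-12). Cyp51, a late enzyme of the pathway, rose by 0.91. In each of these 3 genes the MLX-DN libraries were the highest of the 15, above the GFP and NT shRNA controls. The members that fell were Srebf2, the gene of the pathway's main activator, by 0.37, and Sqle, the squalene epoxidase, by 0.13; both were chosen after their values were seen. Fatty acid synthesis genes did not follow, with 5 of 19 higher, 12 lower and a median of -0.09, and with 6 higher and 8 lower when chromosomes were centred, although Acacb and Scd2 rose by 0.65 and 0.36.

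The Msmo1 promoter is shown as the member of lowest p with a CCAAT box, the site of the NF-Y factor that works with SREBP at sterol genes. Capitals mark CCAAT on either strand in chr8:64733579-64733828, minus strand, GRCm38.p6 from RefSeq.
Msmo1: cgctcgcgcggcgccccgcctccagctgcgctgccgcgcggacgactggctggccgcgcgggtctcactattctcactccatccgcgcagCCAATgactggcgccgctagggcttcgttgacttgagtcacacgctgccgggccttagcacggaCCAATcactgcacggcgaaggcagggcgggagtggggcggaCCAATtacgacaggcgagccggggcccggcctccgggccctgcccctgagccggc
CCAAT stood in 15 of 16 cholesterol-list promoters (93.8%), against 43.1% of all tested promoters. It was not particular to this list. Among lists that fell it stood in 75.9% of mitosis, 63.3% of DNA replication and 61.5% of antigen presentation promoters, but in 25% of interferon-list promoters.

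Proliferation genes were lower with few exceptions. All 35 mitosis and spindle genes fell, with a median of -0.44 and differences from -0.92 to -0.22, and the same 35 remained called after centring within chromosomes. Of 35 DNA replication genes 32 were lower and 1 higher, with a median of -0.38, and centring left 33 lower. Orc1 and Rrm2, the genes of a replication origin subunit and of the small subunit of ribonucleotide reductase, named as the exceptions, were not called (limma adjusted p = 0.104 and 0.301). Cdk1, the kinase that drives entry into mitosis, stood at 16.02, 16.5 and 16.3 FPKM with MLX-DN and 31.1, 31.0 and 32.1 with MLX-WT (-0.87, limma adjusted p = 2.38e-14). Top2a, the topoisomerase of dividing cells, was 34.4, 35.0 and 35.8 against 60.2, 60.3 and 62.0 FPKM, and Ccnb1, cyclin B1, fell by 0.73. Tk1, the thymidine kinase of S phase, fell furthest among replication genes, from 21.3, 20.1 and 20.8 to 7.27, 8.29 and 6.47 FPKM, and Mcm3, part of the replicative helicase, fell by 0.78. The GFP control was higher than MLX-WT for both lists, at a median of -0.23 for mitosis and -0.39 for replication genes, MLX-WT minus GFP. Relative to NT shRNA the MLX-WT medians were 0.13 for mitosis and -0.18 for replication genes, so the controls differed in direction for mitosis. The 1 replication gene that rose was Orc6, which lies in the chromosome 8 run. Of 16 D-type cyclins, partners and inhibitors 12 were lower and 2 higher, the latter being Ccnd2 and Rbl2, a retinoblastoma relative named as an exception. Ccnd1 and Ccnd2 moved in opposite directions: Ccnd1 stood at 8.91, 8.87 and 8.29 against 15.53, 15.51 and 16.01 FPKM and Ccnd2 at 7.59, 7.79 and 7.67 against 3.02, 2.96 and 2.81.

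The promoter of Cdk1 is shown as the mitosis-list member of lowest p that holds both the cell cycle homology region TTTGAA and a CCAAT box. Capitals mark both motifs on either strand in chr10:69352913-69353162, minus strand, GRCm38.p6 from RefSeq.
Cdk1: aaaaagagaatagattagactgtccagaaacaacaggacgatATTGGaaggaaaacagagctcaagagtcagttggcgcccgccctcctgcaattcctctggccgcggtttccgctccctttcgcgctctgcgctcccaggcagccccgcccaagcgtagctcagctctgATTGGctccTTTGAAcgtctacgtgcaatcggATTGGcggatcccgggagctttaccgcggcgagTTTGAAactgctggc
TTTGAA stood in 22 of 29 mitosis-list promoters (75.9%), in 13.3% of the 30 DNA replication promoters and in 14.1% of all tested promoters.

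**Figure D3:**
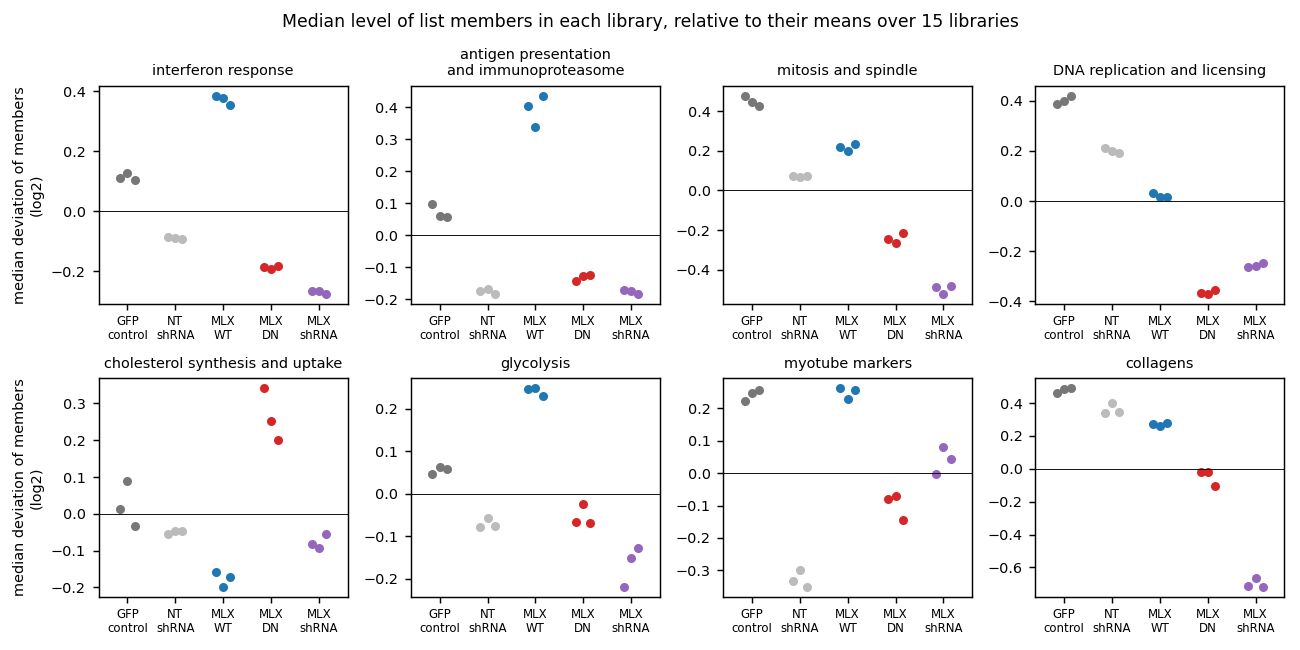
For 8 lists, the median deviation of the members from their means over the 15 libraries, on the log2 scale, in each library. MLX-DN and MLX-WT do not overlap in any of the 8 panels; for interferon response MLX-WT is the highest group, and for both cell cycle lists the GFP control is.

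Glycolysis genes were mostly lower. Of 23 tested 18 were lower and 3 higher, with a median of -0.31, and with chromosomes centred 17 were lower and 5 higher. Hk1, the hexokinase that starts the pathway, stood at 23.2, 22.7 and 21.9 FPKM with MLX-DN and 45.1, 43.6 and 44.7 with MLX-WT (-0.92, limma adjusted p = 4.42e-12). Pfkl, the liver-type phosphofructokinase, fell by 0.83 and Pgam1, a phosphoglycerate mutase, by 0.65. The abundant enzymes Aldoa and Ldha, chosen after their values were seen, fell by 0.46 and 0.33, the former from 1465, 1438 and 1459 to 1060, 1072 and 1035 FPKM. Slc2a1, the GLUT1 glucose carrier, fell by 0.52 from 48.8, 45.8 and 49.9 to 32.5, 34.1 and 31.9 FPKM. In the pentose phosphate and NADPH list 12 of 14 were lower and 1 higher, with a median of -0.28, and centring left 11 lower. G6pdx, the enzyme that commits glucose to that route, was 19.4, 19.7 and 19.2 against 39.6, 39.2 and 41.0 FPKM (-0.97, limma adjusted p = 3.01e-13). The MLX-WT medians of the glycolysis list were above both controls (0.27 over GFP and 0.29 over NT shRNA), whereas those of MLX-DN were below (-0.17 and -0.06). Mitochondrial lists moved less: oxidative phosphorylation had 15 of 51 higher and 20 lower with a median of -0.03, and the citric acid cycle and fatty acid oxidation list 14 of 32 higher and 11 lower. Pdk4 and Cpt1a, which favour fat over glucose as fuel, fell by 0.74 and 0.91.

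Genes of the contractile apparatus went both ways. Of 65 sarcomere and excitation-contraction genes 36 were lower and 17 higher, with a median of -0.13. Centring within chromosomes gave 36 lower and 19 higher, and quantile normalization 30 lower and 26 higher. Myh4, the fast IIb myosin heavy chain, stood at 31.2, 31.4 and 31.7 FPKM with MLX-DN and 103, 100.8 and 104 with MLX-WT (-1.65, limma adjusted p = 8.00e-16). Myh3, the embryonic myosin, was 540.1, 533 and 539.5 against 942, 926 and 936 FPKM, and Actc1, cardiac actin, fell by 0.71. Myl2, the slow and cardiac regulatory light chain, went the other way at 179, 188 and 178 against 74.1, 78.3 and 74.1 FPKM, and was chosen after its values were seen. The Myl2 levels of the controls were lower still, at 2.90, 2.91 and 3.03 FPKM (GFP) and 26.1, 27.1 and 23.8 (NT shRNA). Neither fast nor slow genes kept to 1 direction: the fast myosins Myh1 and Myh2 rose by 0.50 and 0.46 and the slow myosin Myh7 fell by 0.69, all 3 chosen after their values were seen. The 2 controls differed from each other in this list, and MLX-DN lay nearer NT shRNA for Myh4 and Myh3, at 13.9, 15.4 and 15.1 and 478, 506 and 490.1 FPKM.

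The myogenic regulators did not move in 1 direction, with 11 of 21 higher and 9 lower, or 8 higher and 9 lower with chromosomes centred. Mef2c, which switches on late muscle genes, stood at 6.88, 6.61 and 7.23 FPKM with MLX-DN and 25, 24.97 and 25.4 with MLX-WT (-1.61, limma adjusted p = 4.11e-15). Myf5, an early determination factor, fell from 12.9, 12.9 and 12.8 to 4.14, 4.09 and 4.53 FPKM, and the differentiation inhibitors Id3 and Id1 fell by 0.92 and 0.72, while their relative Id2, chosen after its values were seen, rose by 0.39. Myod1 fell by 0.31, whereas Myog, myogenin, was chosen after its values were seen and rose by 0.23 to 712, 718 and 689 from 603, 587 and 613 FPKM. Pax7, the satellite cell factor, rose by 0.40. Fusion and adhesion genes leaned upward, with 17 of 23 higher and 4 lower and a median of 0.14 (15 and 3 with chromosomes centred), among them Adam12 by 0.59 and Cdon by 0.50. In this bulk RNA, fewer cells of a type and less RNA per cell cannot be told apart.

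Secreted muscle factors, the products by which muscle signals to other cells, were evenly divided. Of 69 tested 31 were higher and 30 lower, with a median of 0.01. Igf2, the growth factor that C2C12 cells make as they differentiate, stood at 70.1, 65.7 and 67.3 FPKM with MLX-DN and 142, 143 and 141 with MLX-WT (-1.05, limma adjusted p = 7.02e-15). H19, its neighbour and reciprocally imprinted RNA, went the other way at 3337, 3350 and 3239 against 2174, 2172 and 2159 FPKM. Igfbp6 fell by 0.75, Igf2bp2 rose by 0.82 and Igfbp4, chosen after its values were seen, rose by 1.04. Ptn, pleiotrophin, was 2.96, 2.76 and 2.53 against 12.3, 11.99 and 12.7 FPKM, and Figf (VEGF-D), chosen afterwards, fell by 1.30. Hbegf, a ligand of the EGF receptor, rose by 0.89, and Fst, follistatin, which blocks myostatin and was chosen afterwards, rose from 20.6, 20.3 and 19.7 to 41.7, 41.0 and 42.3 FPKM. Mstn, myostatin itself, was under 0.05 FPKM in both groups and not tested.

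Collagens and the rest of the matrix did not move together. Of 17 collagens 10 were lower and 6 higher, with a median of -0.40, and centring left 11 lower and 6 higher. Col1a1 stood at 43.1, 43.7 and 39.0 FPKM with MLX-DN and 148, 147 and 149 with MLX-WT (-1.78, limma adjusted p = 2.45e-15). Both groups were below the controls, which held 438, 448 and 442 (GFP) and 203, 216 and 198 FPKM (NT shRNA). Col1a2 fell by 0.82 and Col18a1 by 1.14, and Col5a3 rose by 0.99. Other matrix genes were higher in 20 of 37 and lower in 12, with a median of 0.14. Thbs2, thrombospondin-2, and Nov (CCN3) ran against the rises named above, with Thbs2 at 27.2, 27.7 and 27.9 against 152, 148 and 154 FPKM (-2.37, limma adjusted p = 2.81e-19) and Nov at 0.0641, 0.0727 and 0.0626 against 7.81, 7.62 and 8.13. TGF-beta and SRF targets had 12 of 23 higher and 8 lower, led by Ltbp2, with Ctgf (CCN2) up by 1.29. The protease inhibitors Timp1 and Timp3 rose by 0.77 and 0.80.

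Stress and clearance lists had smaller shifts. Over all tested genes 33.2% were higher and 38.9% lower, so counts near those shares say little about a list. The ER chaperones Hspa5 (BiP), Dnajb9 and Calr rose by 0.60, 0.81 and 0.57, while Gdf15, a stress hormone chosen after its values were seen, fell by 0.55, and the joint list had 20 of 41 higher and 16 lower. Lysosome and autophagy genes were lower in 23 of 39 and higher in 6, with a median of -0.15. Psap, the precursor of the saposins, stood at 189, 193 and 183 FPKM with MLX-DN and 324, 320.1 and 329.8 with MLX-WT (-0.78, limma adjusted p = 4.30e-13). Of 31 antioxidant genes 16 were lower and 8 higher, and Sod3, the secreted superoxide dismutase, rose by 1.32 while Gstm2, a glutathione transferase, fell by 1.12. Among 24 hypoxia response genes 14 were lower and 5 higher, with Ddit4, an inhibitor of mTORC1, at 21.2, 20.5 and 20.2 against 43.6, 44.1 and 42.5 FPKM. Of 26 immediate early genes 14 were lower and 9 higher, of 20 p53 targets 11 lower and 3 higher, and of 14 atrophy and FoxO genes 5 were lower and 5 higher.

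Some markers of other cell types also differed between the groups, and their part in these results was not tested. The 12 fibroblast markers summed to 1952 to 1984 FPKM with MLX-DN and 2608 to 2702 with MLX-WT. Of the 9 that were tested, 3 were higher and 6 lower. Of 12 adipocyte markers 8 were under 1 FPKM in both groups, and the sums were 10.2 to 11.4 FPKM with MLX-DN and 79.8 to 83.5 with MLX-WT. Lpl made up most of the MLX-WT sums, at 70.0 ± 1.66 FPKM, and a smaller share of the MLX-DN sums, at 2.89 ± 0.1004 FPKM (SD, n = 3 each). The bone and cartilage markers summed to 1075 to 1118 against 1064 to 1104 FPKM, ranges that overlapped. Spp1 made up most of both sums, at means of 1018.6 FPKM with MLX-DN and 994.2 with MLX-WT. Of these 14 markers 8 were under 1 FPKM in both groups, and of the 6 tested 1 was higher and 3 lower. All 10 endothelial markers were under 1 FPKM in both groups.

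The contrast of MLX shRNA with NT shRNA shares no library with the pair and acts on MLX in another way. In it 8369 genes were called (70.1%), 3674 higher (30.8%) and 4695 lower (39.3%), a split that median centring turns to 4675 higher and 3716 lower. Mlx itself was 2.88, 3.96 and 2.80 FPKM with the hairpin. Of the 113 genes at least 2-fold lower in MLX-DN, 71 also fell with the hairpin and 19 rose, and 74.3% had the same sign. Of the 44 at least 2-fold higher, 13 rose with the hairpin and 25 fell, and 38.6% had the same sign. Over all tested genes 53.3% had the same sign, and the differences of the 2 contrasts correlated at r = 0.12 across genes, which are not independent replicates. No test was made of these shares.

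The hairpin contrast had 180 genes past 2-fold (1.51%), and 37 of them were past 2-fold in the pair as well, which is 20.6% of that list and 23.6% of the 157. Lower in both were 17, among them Txnip (-3.59 and -2.62), Ccl7 (-3.75 and -1.82), Thbs2 (-2.37 and -2.22), Tmem86a (-2.40 and -1.49), Col1a1 (-1.78 and -2.06) and Igf2 (-1.05 and -1.89), each given as the pair's and then the hairpin's log2 difference. Higher in both were 3, of which Cp rose by 1.81 and 1.46. Higher in MLX-DN and lower with the hairpin were 12, and they include Cilp, Ltbp2, Mfap5, Bgn, Fxyd6, Cmklr1, Ptgs2 and Gpx3. Cilp stood at 51.2, 52.8 and 51.4 FPKM with NT shRNA and at 0.376, 0.207 and 0.258 with the hairpin. The reverse held for 5, among them Ly6e. Several gene lists had more members lower than higher in both contrasts. With the hairpin 35 of 35 mitosis genes and 33 of 35 replication genes were lower, with none higher. There 18 of 27 interferon genes were lower and 2 higher, 14 of 17 collagens lower and 2 higher, and 13 of 23 glycolysis genes lower and 2 higher. Other lists differed, with 8 of 14 pentose phosphate and NADPH genes higher and 5 lower with the hairpin. Cholesterol genes had 7 of 23 higher and 10 lower there and the sarcomere list 42 of 65 higher and 15 lower.

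**Figure D4:**
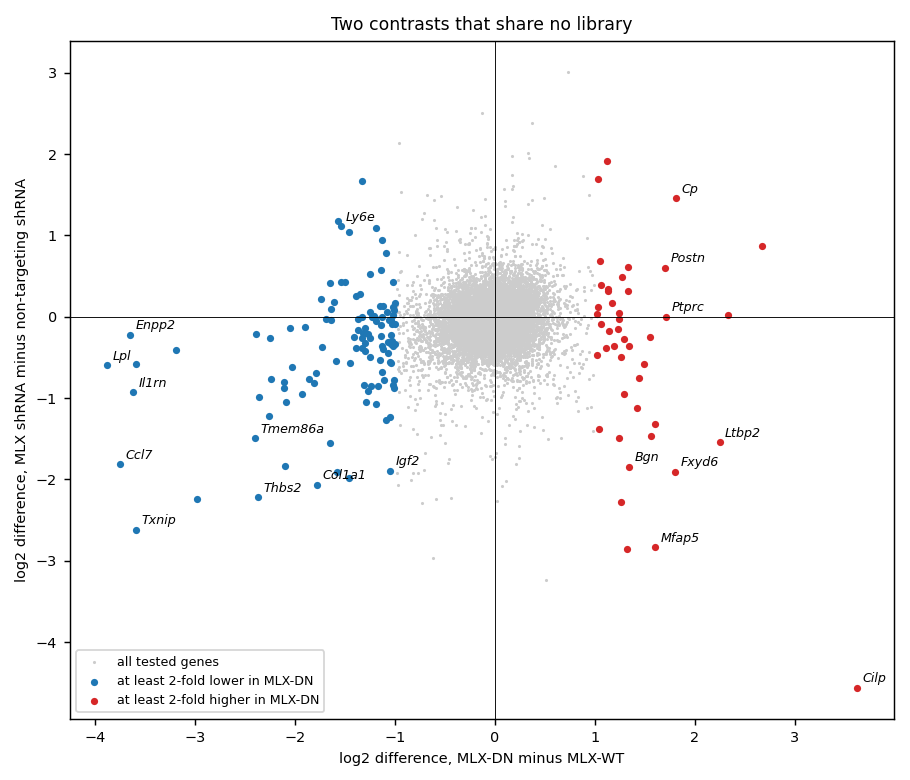
Log2 differences of all 11945 tested genes in 2 contrasts that share no library, MLX-DN minus MLX-WT on the horizontal and MLX shRNA minus NT shRNA on the vertical axis. Blue points (2-fold lower in MLX-DN) lie mostly in the lower left, 71 of 113 having fallen with the hairpin, and red points (2-fold higher) lie on both sides of 0, 25 of 44 having fallen.

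Expression also differed by whole chromosomes. Over 8384 genes of mean FPKM of at least 5, the median difference ran from -0.305 on chromosome 15 and -0.178 on chromosome 10 to 0.162 on chromosome 1 and 0.194 on chromosome 12. On 8 chromosomes every MLX-DN library was above every MLX-WT library, and on 8 every one was below. A run of 125 neighbouring genes of that level on chromosome 8, from Arhgap10 to Rrad, had 109 members higher and 7 lower, with a median of 0.38. Positions came from the GRCm38 annotation. The ends of the run were set with earlier results of these data known, so its counts and median may follow partly from the choice. In that run MLX-DN was at -0.16 and MLX-WT at -0.56 relative to NT shRNA, and at 1.03 and 0.59 relative to the GFP control, so the 2 controls differed there too. The run holds Rnf150, Calr, Cx3cl1, Orc6 and Rbl2, named above. The whole of chromosome 8 had a median of -0.017, so centring by chromosome left the shift of the run nearly unchanged. Chromosome 15 holds Enpp2, Nov, Myc and the Ly6 cluster, and after centring Enpp2 stood at -3.35, Nov at -1.95 and Ly6d at -3.29. The part of these chromosome levels in the gene results was not tested beyond the centring.

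**Figure D5:**
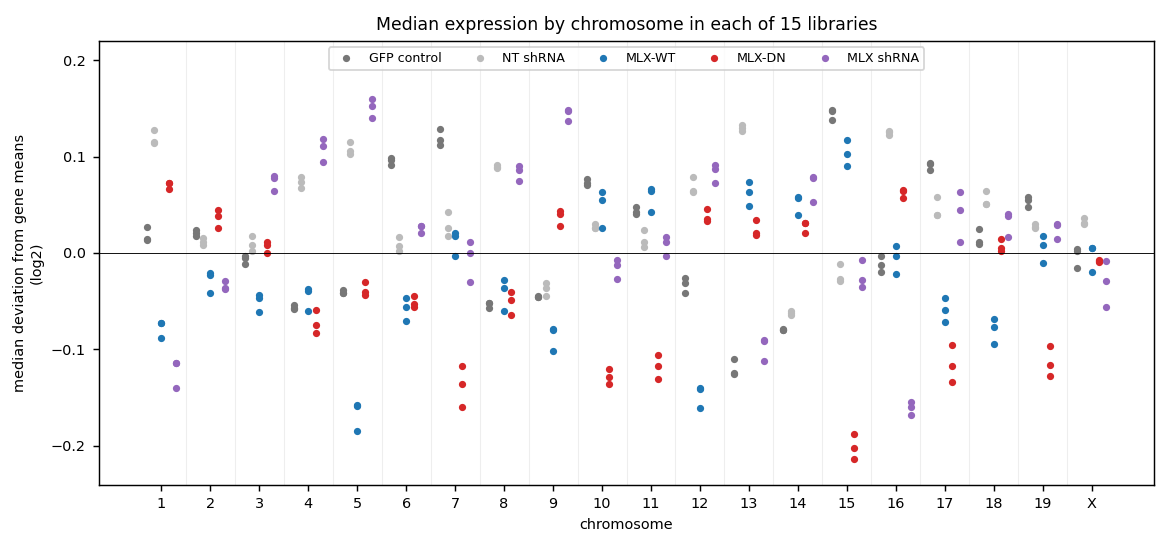
For each of 20 chromosomes and 15 libraries, the median deviation of expressed genes from their means over the libraries, on the log2 scale. The 3 libraries of a group lie close together while groups are apart on many chromosomes, with MLX-DN lowest on chromosome 15 and MLX-WT lowest on chromosomes 5 and 12.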

How the data were processed

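Messenger RNA of C2C12 cells was measured in 15 libraries, 3 for each of 5 groups; group and replicate number were read from GEO's labels. RNA was poly(A)-selected and prepared with a stranded kit, per the labels' protocols. The submitters' processing notes name CASAVA, TopHat2, STAR and mm9, a mouse build, without roles or versions. The deposited values are log2 FPKM in 1 table made by the authors, with no counts. Its lowest value was 1 in every library, so values were read as log2(FPKM + 2), an offset under which FPKM times transcript length summed to 0.914 to 0.945 M over genes holding 94.8% to 95.2% of the total.

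From these, FPKM was computed, and the spacing of low values gave an estimate of depth. Whole reads were met within 0.05 by 64.5% to 66.8% of low values, against 28.0% to 29.6% at other depths, so no count model was used, and depths and floors cover counting error only. The test was limma 3.58.1 (R 4.3.3) with a trend in the variance, 1 mean per group over all 15 libraries, two-sided, with Benjamini-Hochberg adjustment over 11945 genes and a threshold of 0.05, tried on simulated data as well. Contrasts were MLX-DN minus MLX-WT, MLX shRNA minus NT shRNA, and their difference. Control levels are descriptions. Alternatives were other offsets (1 and 0.1), filters, scalings, variance models, a replicate block, leaving out each library and, added after seeing the data, centring within chromosomes.

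Members and lists were chosen with earlier results of these data known. Named genes are the 15 largest rises and falls among called genes that do not overlap and reach a mean of 2 FPKM, without predicted genes; the MLX network; the alpha-arrestins; 2 to 4 list members of lowest p; and 5 genes in each direction for the difference of contrasts. Others are marked as chosen after their values were seen, and a few that the rule names are not reported here. Chromosomes, neighbours and exon overlaps come from the GRCm38 annotation, which placed 99.6% of tested genes; Mlx, Txnip and Ltbp2 overlap an expressed antisense gene over 10% or more of their exon bases.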

Additional observations from a re-analysis of the deposited data

Results flagged for a closer look

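For 9 genes the difference between MLX-DN and MLX-WT was itself compared with the difference between MLX shRNA and NT shRNA, taken from those of lowest p in each direction. The test was the difference of the 2 contrasts in limma, which share no library and passed for 8296 of 11945 genes (69.5%), so passing it is common. Positive values mean that the MLX-DN contrast was the higher one.

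Cilp had the widest gap, at 8.18 (SE 0.042, limma adjusted p = 9.70e-23). It rose by 3.62 in MLX-DN and was at -4.56 with the hairpin. Mfap5 differed by 4.44, Ltbp2 by 3.79 and Bgn by 3.19, all matrix genes that rose in MLX-DN and fell with the hairpin.

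Enpp2 differed by -3.43 and Lpl by -3.28; both fell in both contrasts, and far more in MLX-DN. Xirp2, an actin-binding protein of the muscle cell's junctions, differed by -3.09, with 0.214, 0.227 and 0.221 FPKM with MLX-DN, 2.38, 2.31 and 2.25 with MLX-WT and 8.14, 7.06 and 7.19 with the hairpin. Ly6e differed by -2.66 and Plau, the urokinase plasminogen activator, by -1.74, having fallen in MLX-DN and risen with the hairpin. The causes of these gaps were not tested.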

How the results depend on the processing

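The count of called genes ranged from 6874 with a filter of 5 FPKM to 9547 with no filter, and from 8177 to 8362 when 1 library of the pair was left out. The 2-fold count depended on the offset of the log scale, at 263 genes with an offset of 1 and 540 with 0.1, which understate low genes less. It ranged from 154 to 160 without single libraries. Mlx stayed called between -0.72 and -0.69 without single libraries, at -0.57 with quantile normalization and at -0.53 with chromosomes centred. The share of 2-fold genes with the hairpin's sign ranged from 62.4% to 65.0% without single libraries, and the count for the difference of contrasts from 8001 to 8358. Of 3130 values of 197 named genes under alternatives, 3104 kept direction and side of the threshold, 19 lost the call, 2 gained it and 5 changed sign. The sign changes were Max (-0.07), Mlxip (-0.04) and Mxd4 (-0.13) with chromosomes centred, and Mxd4 without MLX-WT library 3 (-0.00) or MLX-DN library 2 (-0.02), its range without single libraries being -0.02 to 0.02. With chromosomes centred Max and Mxd4 were called as lower (limma adjusted p = 0.0251 and 0.0289). The cause was not tested. With the filter of 5 FPKM 11 interferon genes were left as lower, and with quantile normalization 26 sarcomere genes were higher rather than 17. Same-numbered MLX-DN and MLX-WT libraries deviated together with correlations of 0.105, -0.035 and 0.069, and not every library matched its own number best, so the numbers do not pair them; a fit with the replicate block called 8642 genes, 157 past 2-fold, with Mlx at -0.71, a same-sign share of 64.3% and 8309 for the difference. Depth limits genes near the floor, such as Ptprc with MLX-WT.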

Other observations

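Gpc4 and Hba-a1 were chosen after their values were seen, since groups differed widely in them; for Gpc4 the 2 controls differed as well. Gpc4, a cell surface heparan sulfate proteoglycan, was 0.0196, 0.0411 and 0.0182 FPKM with MLX-DN and 0.0208, 0 and 0.0223 in the GFP control, but 3.55, 4.02 and 3.23 with MLX-WT and 6.30, 6.11 and 5.57 with NT shRNA. The haemoglobin gene Hba-a1 was 7.58, 9.85 and 6.86 FPKM with MLX-WT and 4.12, 5.48 and 5.46 with the hairpin, and under 2 FPKM in the other 3 groups. Its near-identical copy Hba-a2 can share its reads, so both values are uncertain.

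Immediate early genes went both ways, with 9 of 26 higher and 14 lower. Egr2 rose by 0.80, from 3.06, 3.11 and 3.15 to 6.74, 7.14 and 6.85 FPKM, while Klf4, a Krüppel-like factor, fell by 0.57. Among Notch and BMP response genes 8 of 17 were higher and 6 lower, with the ligand Jag1 up by 0.59 and the target Heyl down to 18.8, 18.9 and 18.3 from 30.4, 29.9 and 31.6 FPKM. Of 16 carriers of amino acids and glucose 9 were lower and 4 higher, or 6 lower and 5 higher with chromosomes centred, and Slc2a6, a glucose carrier of the lysosome, was 7.47, 7.58 and 7.44 against 17.6, 16.7 and 17.4 FPKM.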
